A study of Mus musculus with 24 samples.

Results

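Ccng1 and Mdm2 are transcribed under the control of p53, the transcription factor that answers DNA damage. Every probe whose annotation gave exactly 1 gene symbol, and that symbol Ccng1 or Mdm2, was taken, which gave 4 of the 7680 probes of a first array platform (2 of Ccng1 and 2 of Mdm2) and 1 of the 7680 probes of a second platform (Ccng1). These were 2 of 3838 and 1 of 4075 genes with such probes, and the values of each platform form its table. The samples were mouse embryos kept in culture at 37 °C. RNA from embryos exposed for 1 h to 40 µM 4-hydroperoxycyclophosphamide (4CP, a form of the alkylating drug cyclophosphamide that needs no activation by the liver) was hybridised together with RNA from untreated control embryos, 1 in each channel of an array. The 24 array records made 12 slides, each with a first and a second record, and 6 slide pairs, 3 per platform, in which the partner slide carried the channels swapped. No strain, embryo stage, or number of embryos per RNA sample is given in the sources used here, and nothing there says that the 3 pairs came from separate cultures or litters, so p-values measure the spread between slide pairs only, which may be technical.

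When DNA is alkylated or broken, p53 is protected from degradation and switches on genes that halt the cell cycle, repair DNA or start apoptosis. Mdm2 is the ubiquitin ligase that marks p53 for degradation, and since p53 induces it, the pair forms a negative feedback loop. Ccng1 encodes cyclin G1, an atypical cyclin that binds regulatory subunits of protein phosphatase 2A and brings the phosphatase to Mdm2, so both genes act on p53 itself.

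In the RefSeq annotation of build GRCm38.p6, Ccng1 lies on chromosome 11 from 40748552 to 40755309 and Mdm2 on chromosome 10 from 117688875 to 117710758, both on the minus strand. The files do not place the probes within the transcripts, so exons cannot be assigned to them. The promoters are shown because p53 binding sites are what the genes have in common. Each RefSeq window runs from 250 bases before the annotated start to 50 after it, at chr11:40755237-40755536 for Ccng1 and chr10:117710709-117711008 for Mdm2, on the minus strand and 5′ to 3′. Capitals mark matches to the p53 half-site consensus, which is 10 bases long and reads the same on both strands, and to a pair of half-sites without spacer that differs from the 20 bases of the consensus at 1 position at most.
Ccng1: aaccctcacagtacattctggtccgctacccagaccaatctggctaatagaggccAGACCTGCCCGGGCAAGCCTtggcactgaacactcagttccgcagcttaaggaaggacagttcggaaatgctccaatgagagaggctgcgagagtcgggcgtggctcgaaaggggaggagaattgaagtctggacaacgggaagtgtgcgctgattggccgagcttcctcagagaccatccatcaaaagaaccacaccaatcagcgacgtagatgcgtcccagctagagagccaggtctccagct
Mdm2: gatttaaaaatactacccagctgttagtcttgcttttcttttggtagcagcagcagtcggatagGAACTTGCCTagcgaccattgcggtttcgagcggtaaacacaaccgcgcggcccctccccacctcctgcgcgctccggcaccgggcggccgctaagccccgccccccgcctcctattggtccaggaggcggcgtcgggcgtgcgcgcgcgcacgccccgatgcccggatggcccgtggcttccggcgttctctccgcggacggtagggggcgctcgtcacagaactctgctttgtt
The Ccng1 window held a 20-base pair of half-sites, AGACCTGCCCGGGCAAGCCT, with 1 mismatch in its upstream 10 bases and none in its downstream 10 bases. It began 195 bases before the start and ended 176 bases before it. The start used for Ccng1 lies inside the gene span given above, whereas the start used for Mdm2 is the upper coordinate of its span. The Mdm2 window held 1 isolated half-site, GAACTTGCCT, from 186 to 177 bases before the start, and its best 20-base stretch had 5 mismatches. Of 32851 promoter windows of the same length, 8.36% held an exact half-site and 0.0883% held a paired site with at most 1 mismatch. In mouse and human the well known p53 sites of Mdm2 lie at a second promoter inside the first intron of the gene. A match describes the letters of these windows and not binding.

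Each deposited value compares both channels of an array as a log ratio. The log base is not stated, so sizes are given in log units of that base, and a value of 0.10 corresponds to a 1.07-fold difference in base 2 and to a 1.11-fold difference in base e. Each array was centred on its median. The value of the slide with treated RNA in channel 1, minus that of its swapped partner, was divided by 2. This gave the treatment effect of a slide pair and cancels a dye effect of the probe that is equal on both slides. The numerator channel is not stated. A positive effect stands for more RNA in treated embryos if it was channel 1 and for less if it was channel 2, and the words positive and negative are used for this reason. It is also not stated whether swapped slides had been turned before deposit, in which case the mean of both slides, called the dye component here, would be the treatment effect. In whole embryos, fewer cells that express a gene and less RNA per cell cannot be told apart.

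Neither gene passed the test. With limma, 0 of 4 first-platform probes and 0 of 1 second-platform probe had an adjusted p under 0.05, where 0% of all probes on either platform did. At an unadjusted p under 0.05 there was 1 of 4, probe 5943 of Ccng1, and 0 of 1, against 2.34% and 5.22% of all probes. None of the alternatives tried called a member either, while they called between 0% and 8.7% of all first-platform probes. Both first-platform probes of Ccng1 nonetheless had positive effects in all 3 slide pairs, as 11.4% of all first-platform probes did (9.84% on the second platform; 22.6% of first-platform and 24.5% of second-platform probes had 1 sign in all 3 pairs). The second-platform probe of Ccng1 and both probes of Mdm2 changed sign between pairs. In the order of mean effects, Ccng1 probe 5943 stood first with 0.14 ± 0.07 (SD, n = 3 slide pairs), followed by Ccng1 probe 4304 with 0.10 ± 0.03, Mdm2 probe 6074 with 0.05 ± 0.09, Mdm2 probe 15 with -0.06 ± 0.18 and the second-platform Ccng1 probe 6776 with -0.06 ± 0.22. Neighbours in this order differed by less than the larger of their SDs.

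Ccng1 probe 5943 had the largest mean effect of the 5. Where treated RNA was in channel 1, the first and second records of its slides read 0.06 and -0.07 in pair 1, -0.14 and 0.04 in pair 2, and -0.94 and -0.91 in pair 3. On the swapped slides, treated RNA in channel 2, they read -0.47 and -0.36 in pair 1, -0.22 and -0.15 in pair 2, and -1.22 and -1.27 in pair 3. Within each pair both records of the first orientation lay above both of the swapped one, narrowly in pair 2. Across pairs the orientations overlapped, because all 4 arrays of pair 3 lay far below those of pairs 1 and 2. The dye component of all first-platform probes spread more widely in pair 3, with an SD of 0.68 against 0.27 in pairs 1 and 2. In pair 3, 10.2% of all probes had a lower dye component than this probe. The pair effects were 0.21, 0.07 and 0.16, which exceeded the effects of 96.4%, 78.2% and 96.3% of all probes in pairs 1, 2 and 3. Their mean of 0.14 lay above the means of 98.4% of probes. All 95% intervals given here use limma's variance, which is drawn toward that of all probes, so they do not follow from a probe's own SD. For this mean the interval was 0.03 to 0.26, not adjusted for the number of probes. The upper bound equals 1.2-fold if the base is 2 and 1.3-fold if it is e. In limma the unadjusted p was 0.020, the adjusted p was 0.997, and the probe ranked 63 of 7680 by p-value. The adjusted p of 0.997 was the lowest of any first-platform probe. All 4 member probes there shared it, so it does not tell them apart.

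Ccng1 probe 4304 had a smaller mean and the tightest spread of the 5. With treated RNA in channel 1 it read 0.12 and 0.04 in pair 1, 0.43 and 0.24 in pair 2, and -0.23 and -0.27 in pair 3. The swapped slides, with treated RNA in channel 2, read -0.07 and -0.05 in pair 1, 0.13 and 0.07 in pair 2, and -0.47 and -0.48 in pair 3. Again both records of the first orientation exceeded both of the swapped one in every pair, while pair 3 lay lowest as a whole. In that pair, 33.9% of all probes had a lower dye component than this probe. Pair effects were 0.07, 0.12 and 0.11, an SD of 0.03 that was larger than that of only 7.38% of probes. With limma's variance, and not the SD of this probe alone, the 95% interval of the mean, from -0.01 to 0.21, included 0. The limma adjusted p was 0.997.

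The separation of orientations in all 3 pairs, with channel 1 above, was met by both first-platform Ccng1 probes and by 1.52% of all probes there, against 0.417% on the second platform. This measure was chosen after the values were seen. It holds for centred arrays: with values as deposited, the pair effects of probe 4304 were -0.0048, 0.0208 and -0.0857 and those of probe 5943 were 0.1303, -0.0311 and -0.0389. Their means were -0.02 and 0.02, while the median effect of all first-platform probes lay at -0.1285. The mean effects of both first-platform Ccng1 probes are therefore positive relative to the median probe and near 0 on the deposited scale.

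**Figure D1:**
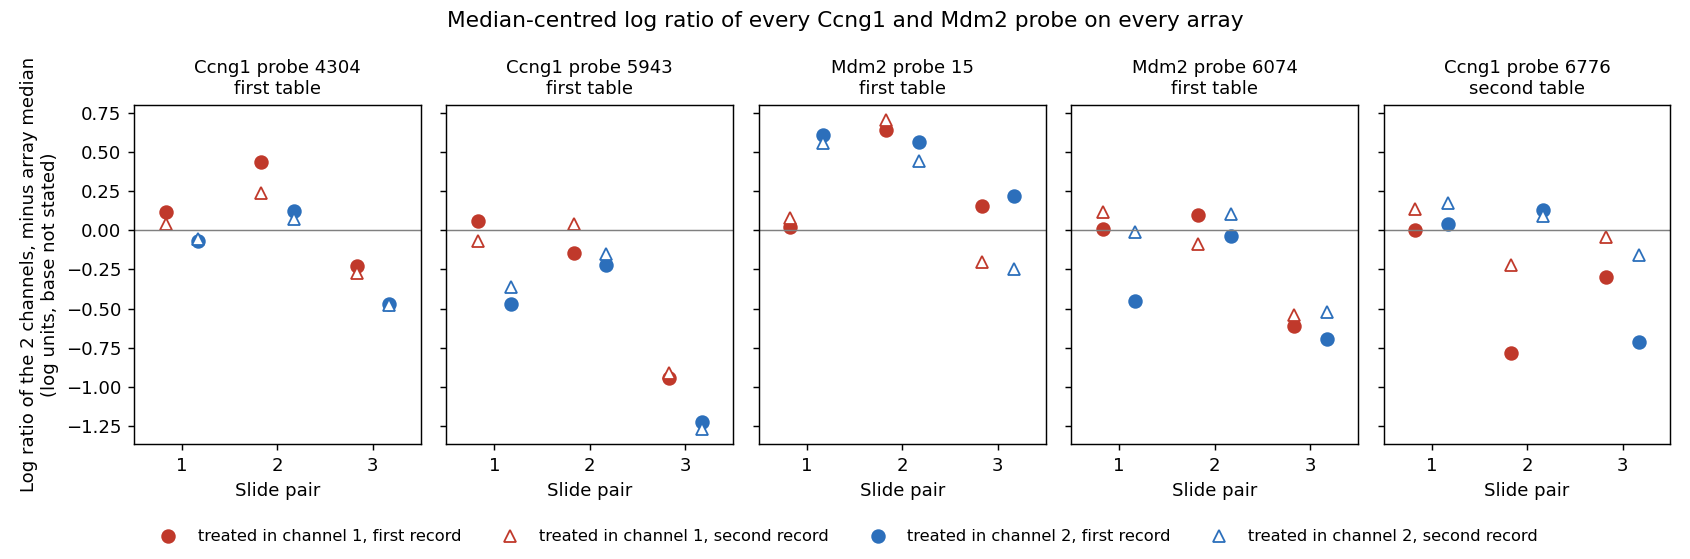
Centred log ratio (y axis, log units of unstated base) of each Ccng1 and Mdm2 probe on each of its 12 arrays, by slide pair (x axis), with colour for the channel that held treated RNA and filled circles or open triangles for the first or second record. On Ccng1 probes 4304 and 5943 both red points lie above both blue points in every pair, whereas Mdm2 probes 15 and 6074 and Ccng1 probe 6776 show no common order.

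The second-platform probe of Ccng1, 6776, did not show this pattern. With treated RNA in channel 1 it read 0.0009 and 0.13 in pair 1, -0.78 and -0.22 in pair 2, and -0.30 and -0.04 in pair 3. The swapped slides, with treated RNA in channel 2, read 0.04 and 0.17 in pair 1, 0.13 and 0.09 in pair 2, and -0.72 and -0.16 in pair 3. The orientations overlapped in pairs 1 and 3 and were apart only in pair 2, with channel 1 below. Its pair effects were -0.02, -0.31 and 0.13, and only 0.365% of probes lay below it in pair 2, against 96.3% in pair 3. Its SD was larger than that of 98.9% of second-platform probes. The 2 records of a slide differed by up to 0.56, against up to 0.20 for probe 4304 and up to 0.18 for probe 5943. The mean of -0.06 had a 95% interval of -0.22 to 0.09 and a limma adjusted p of 0.982.

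Averaged over its probes, Ccng1 had first-platform effects of 0.14, 0.09 and 0.13 in pairs 1, 2 and 3, a mean of 0.12 ± 0.03 (SD, n = 3), against -0.06 ± 0.22 (n = 3) on the second platform. The difference of 0.19 between platforms gave p = 0.2 in an exact two-sided permutation test, in which 3 against 3 pairs can reach 0.1 at the lowest. It is not known whether a pair number stands for the same RNA on both platforms. If it does, the differences were 0.1591, 0.3999 and 0.0012 for numbers 1, 2 and 3, all of 1 sign (exact two-sided sign-flip test, p = 0.25, the smallest that 3 numbers allow), a test chosen after seeing the data. Taking the 6 pairs as separate, the mean was 0.03 ± 0.18, with 4 of 6 pairs positive (exact two-sided sign-flip test, p = 0.75, smallest possible 0.03125), and with linked numbers p was 0.75 with 0.25 as the smallest possible. Without pair 2 of both platforms the mean was 0.10 and without pair 3 of both it turned to -0.02.

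After centring, Mdm2 had no common direction between its probes. Probe 15 read 0.02 and 0.08 in pair 1, 0.64 and 0.70 in pair 2, and 0.15 and -0.20 in pair 3 with treated RNA in channel 1. The swapped slides, with treated RNA in channel 2, read 0.61 and 0.56 in pair 1, 0.56 and 0.44 in pair 2, and 0.22 and -0.25 in pair 3. The orientations were apart in opposite directions in pairs 1 and 2 and overlapped in pair 3. Its pair effects were -0.27, 0.09 and -0.01, so that 1.8% of probes lay below it in pair 1 and 85% in pair 2. The mean was -0.06 (95% interval -0.22 to 0.10, limma adjusted p = 0.997) and turned to 0.04 without pair 1.

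Mdm2 probe 6074 read 0.01 and 0.12 in pair 1, 0.10 and -0.09 in pair 2, and -0.61 and -0.54 in pair 3 with treated RNA in channel 1. The swapped slides, with treated RNA in channel 2, read -0.45 and -0.01 in pair 1, -0.04 and 0.11 in pair 2, and -0.69 and -0.52 in pair 3. The orientations were apart in pair 1 alone. Pair effects of 0.15, -0.02 and 0.02 gave a mean of 0.05 (95% interval -0.07 to 0.17, limma adjusted p = 0.997), and without pair 1 the mean was -2e-04. Averaged over both probes, Mdm2 had -0.06, 0.03 and 0.01 in pairs 1, 2 and 3 and a mean of -0.01 ± 0.05 (SD, n = 3; exact two-sided sign-flip test, p = 1, where 0.25 is the smallest possible). With values as deposited, Mdm2 had -0.1361, -0.0636 and -0.1921 in pairs 1, 2 and 3, a mean of -0.1306 (exact two-sided sign-flip test, p = 0.25, the smallest possible), near the median of -0.1285 over all probes of that platform on the same scale. Probe 15 was then negative in all 3 pairs and probe 6074 in pairs 2 and 3. The probes of Mdm2 differed most in pair 1, where probe 15 lay 0.41 below probe 6074.

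**Figure D2:**
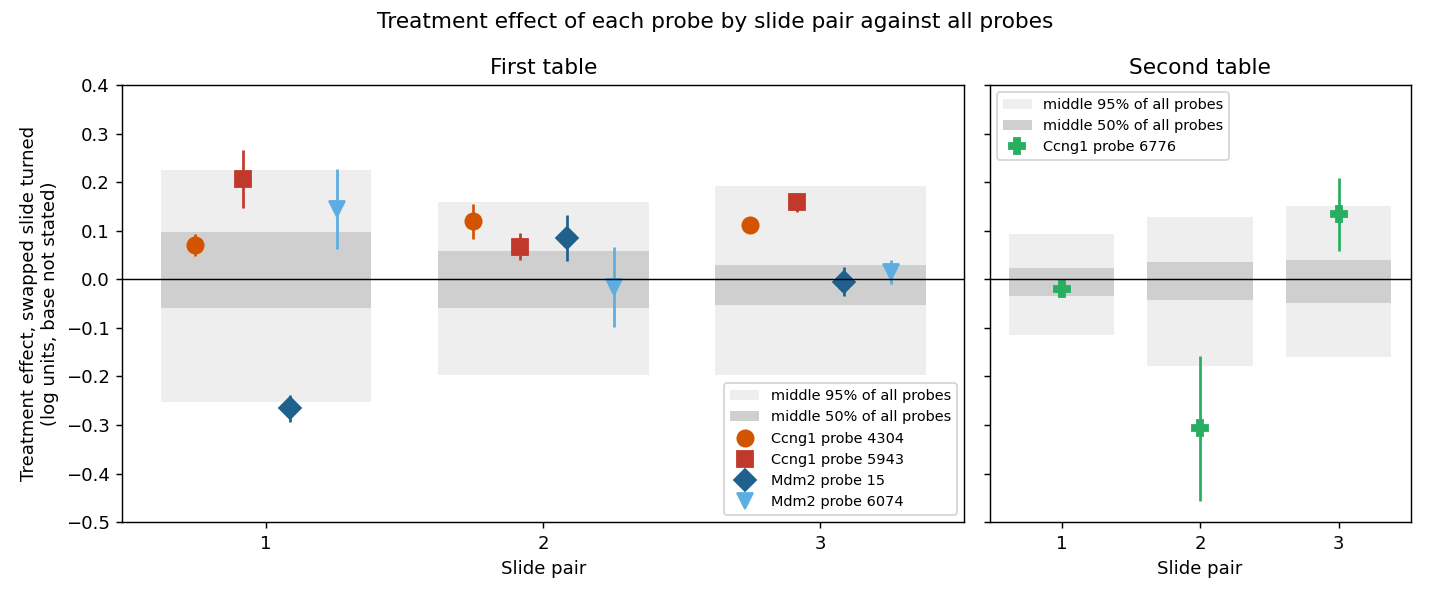
Treatment effect (y axis, log units of unstated base, swapped slide turned) of each probe in each slide pair (x axis), with lines from the effect in the first records to that in the second records, over grey bands that hold the middle 50% and 95% of all probes of the table. Ccng1 probes 4304 and 5943 lie above 0 in all 3 first-platform pairs, inside the 95% bands, while Mdm2 probe 15 in pair 1 and Ccng1 probe 6776 in pair 2 lie below their bands.

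The effects were also computed from the first and the second records alone, which gives 6 values per probe (3 pairs and 2 records) that share the RNA and slides of a pair. Whether the second record is a second scan of the same spots or a second set of spots is not stated, so agreement between records may be only that of the scanner. All 6 were positive for Ccng1 probe 4304, from 0.05 to 0.15, and for Ccng1 probe 5943, from 0.04 to 0.27. Effects positive in all 3 pairs in both records were found for 4.67% of first-platform and 1.74% of second-platform probes. Of 6 record values, 3 were positive for Mdm2 probe 15, 4 for Mdm2 probe 6074 and 2 for Ccng1 probe 6776. Across these 6 values the probes of a gene did not follow each other: Pearson's r was -0.433 between the Ccng1 probes and -0.843 between the Mdm2 probes. Ccng1 probe 5943 had r = 0.613 with Mdm2 probe 6074 and -0.714 with Mdm2 probe 15, and Ccng1 probe 4304 had 0.45 with Mdm2 probe 15 and 0.066 with Mdm2 probe 6074. With so few values that share slides, these coefficients are descriptions only.

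By the same measure, the most similar patterns were sought among the probes of a table with 1 gene symbol, leaving out those of the same gene. For Ccng1 probe 4304 they were Nin (r = 0.971), Rnf24 (0.971) and Slc11a2 (0.969), whose own mean effects of -0.04, -0.02 and -0.05 lay on the other side of 0. For Ccng1 probe 5943 they were Gpatch2 (0.993), Eif4b (0.988) and Glrx (0.988), with mean effects of -0.02, 0.09 and -0.01. Mdm2 probe 15 was followed most closely by Derl1 (0.996), Hexa (0.995) and Atl1 (0.995), and Mdm2 probe 6074 by Dcp1a (0.991), Fblim1 (0.99) and Sccpdh (0.988). On the second platform Ccng1 probe 6776 was closest to Ezr (0.994), Mxd4 (0.986) and Plec (0.984). The other probe of the same gene was ranked by r among all 7679 other probes of the table. It ranked 5870 for Ccng1 probe 5943 and 7409 for Mdm2 probe 6074.

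The dye component was as large as or larger than the treatment effect on all 5 probes in the mean over 3 pairs, except on Ccng1 probe 4304. This is not particular to them. Over all probes the median size of the mean dye component was 0.17 on the first platform and 0.15 on the second. The median size of the mean effect was 0.04 and 0.02. On Ccng1 probe 5943 it was -0.21, -0.12 and -1.09 in pairs 1, 2 and 3 (mean -0.47 ± 0.53), and 11.1% of first-platform probes had a lower mean. On Ccng1 probe 4304 it was 0.01, 0.22 and -0.36 (mean -0.05 ± 0.29). Mdm2 probe 15 had 0.32, 0.59 and -0.02 (mean 0.30 ± 0.30), and Mdm2 probe 6074 had -0.08, 0.02 and -0.59 (mean -0.22 ± 0.33). Ccng1 probe 6776 had 0.09, -0.19 and -0.30 (mean -0.14 ± 0.20). Over all probes, Pearson's r between effect and dye component in pairs 1, 2 and 3 was -0.456, 0.374 and 0.154 on the first platform. On the second it was 0.104, 0.118 and 0.143. Whether a dye effect remains in the effects of the 5 probes was not tested.

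Read without the turn, as would apply to values deposited as treated over control, these means are the treatment effects, and Ccng1 would be negative on all 3 probes. None of the 5 probes passed under this reading either (limma adjusted p from 0.243 for Ccng1 probe 5943 to 0.964 for Ccng1 probe 4304), where 2.85% of first-platform and 0% of second-platform probes did. From the slides with treated RNA in channel 1, probe 5943 had -0.33, and from the swapped slides, turned, 0.62. Of the 3 Ccng1 probes, 4304 was the one positive in both, at 0.06 and 0.15.

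**Figure D3:**
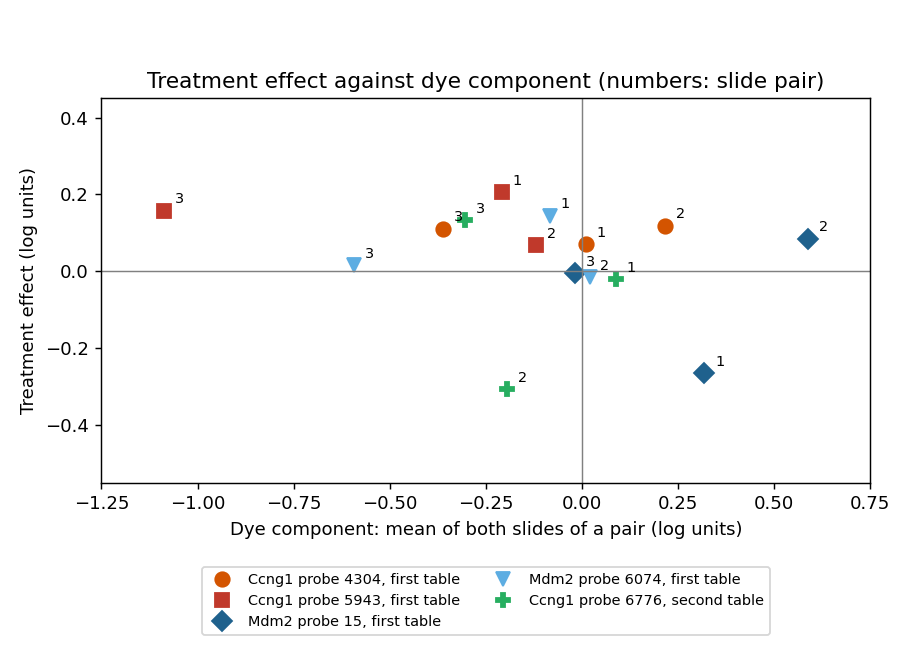
Treatment effect (y axis) against dye component (x axis), both in log units of unstated base, for each of the 5 probes in each slide pair, with the pair's number beside the point. The dye component spans -1.09 to 0.59 and the treatment effect -0.31 to 0.21. Ccng1 probe 5943 had effects of 0.21, 0.07 and 0.16 and dye components of -0.21, -0.12 and -1.09 in pairs 1, 2 and 3.

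Other genes that p53 switches on were looked at from a list of 48 targets, with probes averaged per gene. On the first platform 8 were measured, of which 0 passed (limma, lowest adjusted p = 0.989), as 0% of all genes did, and an unadjusted p under 0.05 was reached by 0, against 2.94% of all genes. Their effects ran from -0.04 to 0.07 with a median of 0.01, and 4 of 8 were positive, where the median over all 3838 genes was 0.00 and 51% were positive. Positive in all 3 pairs were 2 of 8, against 13.4% of genes: Aen, an exonuclease of apoptosis, at 0.07 ± 0.03 (SD, n = 3), and Btg2, an antiproliferative factor, at 0.06 ± 0.07. Counted over 2 pairs in place of 3, genes of 1 sign were 4 without pair 1, 5 without pair 2 and 3 without pair 3. Any gene is more likely to keep 1 sign over 2 pairs, and the share of all genes is not given, so nothing is drawn from these counts. On the second platform 13 targets were measured and 0 passed (limma, lowest adjusted p = 0.913), as 0% of genes did, and an unadjusted p under 0.05 was reached by 1, against 5.28% of genes. That gene was Xpc, a damage sensor of nucleotide excision repair, at -0.09 ± 0.09, named after its value was seen. Effects ran from -0.09 to 0.06 with a median of 0.01, and 8 of 13 were positive, against 46% of genes. Positive in all 3 pairs was 1 of 13, Casp6, an effector caspase, and negative 0, against 9.72% and 16.2% of genes. Aen had 0.02 ± 0.03 on this platform. Without pair 1, 2 or 3 the genes of 1 sign in the remaining pairs were 4, 4 and 7, again without a share of all genes to set them against. Cdkn1a, Bax, Trp53 and Ccng2 were not analysed here, as no probe with 1 symbol named them.

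Genes that regulate p53 or bind Mdm2 came from a list of 38. On the first platform 16 were measured and 0 passed (limma, lowest adjusted p = 0.989), as 0% of all genes did, with 0 at an unadjusted p under 0.05, against 2.94%. Of these, 13 had positive means, against 51% of genes, 7 were positive in all 3 pairs and 1 was negative in all 3, against 13.4% and 10.2% of genes, with a median of 0.04. The largest of 1 sign were Rpl23 at 0.11 ± 0.10 (SD, n = 3) and Rpl5 at 0.10 ± 0.08, ribosomal proteins that bind Mdm2, Cop1, a ubiquitin ligase of p53, at 0.09 ± 0.07, Akt1, a kinase that phosphorylates Mdm2, at 0.08 ± 0.03, and Nedd8, a ubiquitin-like modifier, at 0.08 ± 0.07. All 5 had negative dye components, -0.90 for Rpl23, -0.86 for Rpl5, -0.41 for Cop1, -0.26 for Akt1 and -0.48 for Nedd8, and the part of the dye in their effects was not tested. Mdm4, the relative of Mdm2 that represses p53, had 0.03, -0.07 and 0.03 in pairs 1, 2 and 3. On the second platform 16 were measured, 7 had positive means, against 46% of genes, and 0 passed (limma, lowest adjusted p = 0.913), as 0% of genes did, with 0 at an unadjusted p under 0.05, against 5.28%. Positive in all 3 pairs were 2 and negative 1, against 9.72% and 16.2% of genes. Rpl23 had 0.07 ± 0.03 and Npm1, a nucleolar protein that binds Mdm2, 0.02 ± 0.02, both positive in all 3 pairs, and Rchy1, another ubiquitin ligase of p53, had -0.03 ± 0.01. Rpl5, positive on the first platform, had -0.03 ± 0.05 here, and is named after its value was seen.

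Relatives of Ccng1 and partners of cyclin G were taken from a list of 32 cyclins, kinases and phosphatase 2A subunits. Of 13 measured on the first platform, 0 passed (limma, lowest adjusted p = 0.989), as 0% of all genes did, and 0 had an unadjusted p under 0.05, against 2.94%. Positive means were found for 8, against 51% of genes, and the median was 0.0047. Positive in all 3 pairs were 4 and negative 1, against 13.4% and 10.2% of genes. Ccnd3, a cyclin D that drives entry into S phase, had 0.10 ± 0.06 (SD, n = 3), Ccne1, the cyclin E1 of the G1/S transition, 0.09 ± 0.05, and Ppp2r5d, a phosphatase 2A subunit of the family that cyclin G1 binds, 0.08 ± 0.05, each positive in all 3 pairs. Ccnd2, another cyclin D, had 0.04 ± 0.04 and Ccnc, the cyclin of the Mediator kinase module, -0.05 ± 0.04, each with 1 sign in all 3 pairs. The effects of Ccng1 on this platform lay beside those of Ccnd3 and Ccne1. Of 14 measured on the second platform, 0 passed (limma, lowest adjusted p = 0.9), as 0% of genes did, and 1 reached an unadjusted p under 0.05, against 5.28%. Positive means were found for 6, against 46% of genes, and the median was -0.02. Positive in all 3 pairs was 1 and negative 4, against 9.72% and 16.2% of genes. Among these 5 genes of 1 sign, the largest was Ccni, cyclin I, a relative of cyclin G1, at -0.08 ± 0.06, which was also the 1 with an unadjusted p under 0.05, then Ppp2r5c, a phosphatase 2A subunit like Ppp2r5d, at -0.05 ± 0.01, Cdk5 at 0.04 ± 0.05, Ccna2, the cyclin of S phase and G2, at -0.03 ± 0.03 and Ccno at -0.01 ± 0.01. Ccnd3, whose pairs on this platform differed in sign, had 0.09 ± 0.15, and Ccnd2 had -0.03 ± 0.07, opposite in sign to its first-platform mean. Both are named after their values were seen.

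A ratio of 2 channels holds no level, so the presence of embryonic tissues could not be checked from these values. Of 11 markers of the yolk sac visceral endoderm, 4 had effects from -0.06 to -0.02 on the first platform and 1, Apoc2, had 0.02 on the second. Of 8 primitive erythroid markers, Gata1 had -0.01 on the first platform and 3 had effects from -0.09 to -0.05 on the second. Of these 3, 1, Hba-x, had an unadjusted p under 0.05 in limma (adjusted p = 0.9), against 5.28% of genes. Negative in all 3 pairs were 2 of the 3 and positive 0, against 16.2% and 9.72% of genes. Of 7 trophoblast and decidua markers, 4 had effects from -0.04 to 0.17 on the first platform and 1, Krt18, had 0.03 on the second. Genes given singly here were named after their values were seen. No marker passed the test, and their part in the values of Ccng1 and Mdm2 was not tested.

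**Figure D4:**
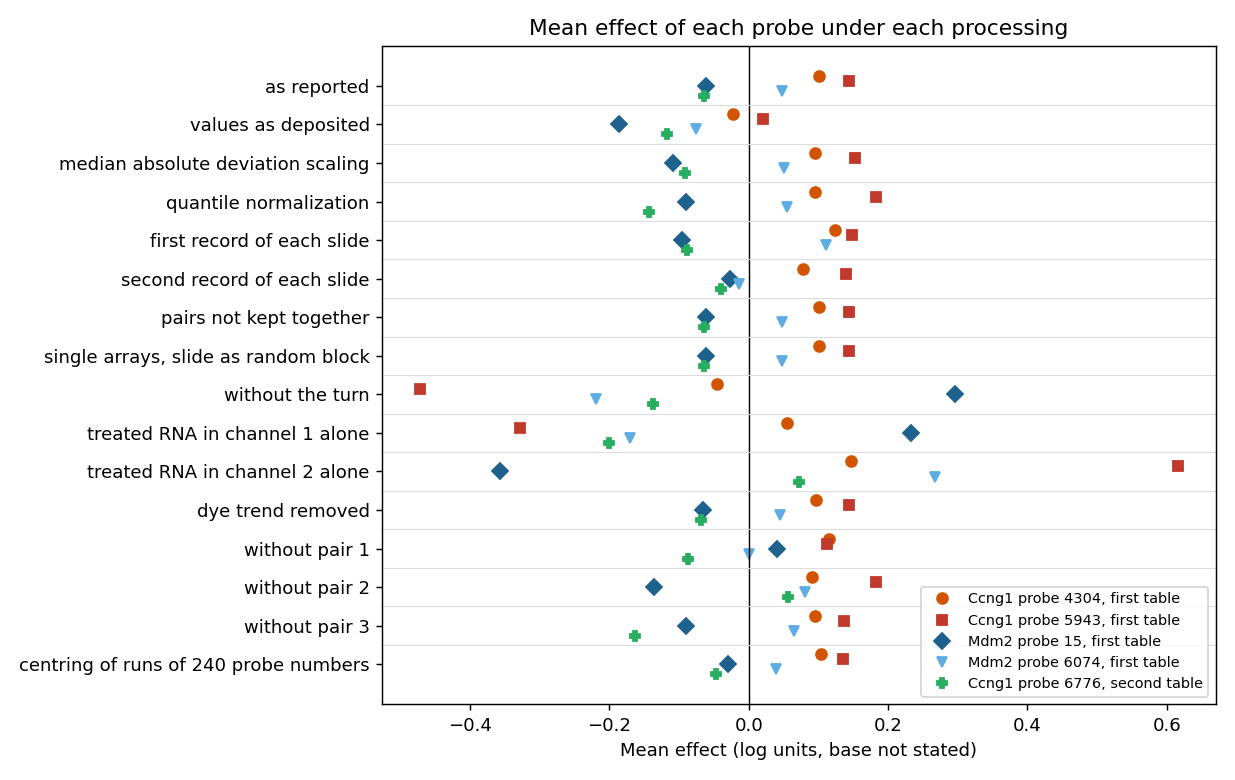
Mean effect (x axis, log units of unstated base) of each of the 5 probes, 1 marker each, under the reported processing (top row) and under each alternative. Ccng1 probes 4304 and 5943 stay between 0.08 and 0.18 under rescaling, choice of record and omission of a pair, and lie at -0.02 and 0.02 with values as deposited, whereas without the turn they lie at -0.05 and -0.47. The sign is turned under 2 alternatives each for Ccng1 probes 4304, 5943 and 6776, under 3 for Mdm2 probe 15 and under 5 for Mdm2 probe 6074.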

How the data were processed

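The deposited values are scores on a log scale, judged from the values themselves: log ratios of both channels of an array with 7 decimals and an unstated base, none missing, in 2 tables of 7680 probes and 12 arrays. The highest value, 7.71, exceeds 4.82, the log10 of a 16-bit scanner's range, so folds are given for bases 2 and e, but subtracted or rescaled intensities could exceed it too and base 10 was not excluded. What the authors did for background and normalization is not given in the sources used here, and signal over background is unknown. Before centring on the median, arrays had medians between -0.305 and 1.12 (first table) or 0.272 and 2.10 (second table).

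Records of a slide were averaged and pair effects computed, so that the slide pair acts as a block, by the pair numbers in the titles. The mean over 3 pairs was tested against 0 in R 4.3.3 by limma 3.58.1 (lmFit, then eBayes), fitted over all probes of a table. Benjamini-Hochberg adjusted p-values were held against 0.05. The code was tested on simulated data. Gene symbols came from the annotation of each platform, brought up to date through gene identifiers, and 4749 and 4935 probes had 1 symbol. Named genes were, per list and table, up to 5 with the largest mean effect among those of 1 sign in all pairs, plus Cdkn1a, Bax, Trp53, Mdm4 and Ccng2 where measured. Likeness took the 3 other genes with the highest r. Members and lists were chosen with earlier results of these data known. Alternatives changed the centring, scaling, records, pairing, turn of swapped slides and pairs used. Promoters are from RefSeq, GRCm38.p6, and both genes were found there.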

Additional observations from a re-analysis of the deposited data

How the results depend on the processing

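No probe of Ccng1 or Mdm2 passed the threshold in either table under any of the 15 alternatives, which called 0 to 668 first-table and 0 to 58 second-table probes. Linking pair numbers, chosen after seeing the data, leaves the means of Ccng1 unchanged by construction. It could pass no threshold either, since 0.25 is the smallest p that the sign-flip test allows with 3 numbers. The slide pairs were kept as a block throughout. With no replicate block the probe means were the same, by construction, and 0 of the members passed in each table. Signs were less firm. Without centring, effects were -0.0232 for Ccng1 probe 4304, -0.0755 for Mdm2 probe 6074 and -0.0594 for Ccng1 over both tables, and Mdm2 moved to -0.1306, probe 15 to -0.1856 and probe 6776 to -0.1173. Under quantile normalization Ccng1 over both tables was -0.0021. Without the turn, probes 15, 4304, 5943 and 6074 had 0.2954, -0.0455, -0.4716 and -0.219, Ccng1 and Mdm2 over their pairs -0.1977 and 0.0382, and the difference of Ccng1 between tables -0.1217. With treated RNA in channel 1 alone, probes 15, 5943 and 6074 had 0.2336, -0.3277 and -0.1707, Ccng1 and Mdm2 -0.1688 and 0.0315, and 1 p53 target passed, Fas at -0.7853, where 1.93% of genes did. Slides of 1 orientation do not cancel a dye effect. From both orientations, as reported, Fas had -0.0016 ± 0.1387 (SD, n = 3) in the first table. With treated RNA in channel 2 alone, probe 6776 had 0.0724. From first records Mdm2 had 0.0074, and from second records probe 6074 had -0.0146. Centring runs of 240 probe numbers, chosen after seeing the data, gave Mdm2 0.0047. Leaving out a slide pair gave -0.1353 to 0.0401 for probe 15, -2e-04 to 0.0803 for probe 6074, -0.1635 to 0.0566 for probe 6776, -0.0238 to 0.0967 for Ccng1 and -0.0275 to 0.02 for Mdm2. The cause of these changes was not tested. Genes of the p53 target list with 1 sign in all pairs numbered 1 to 5 in the first table and 0 to 9 in the second. The shares of all genes under the alternatives are not given, so nothing is drawn from these counts. The permutation tests need pair values and were not run without the block or on single arrays. Each table holds 3 pairs, and signal over background is unknown.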
